A study of Homo sapiens with 17 samples.

Results

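Transcripts of the ID genes (*ID1*, *ID2*, *ID3* and *ID4*) and of 4 inhibitors of SMAD signaling (*SMAD6*, *SMAD7*, *SKI* and *SKIL*) were examined by TimeLapse sequencing (TL-seq) of HEK-293T cells. These 8 genes were taken by symbol from a list of known family members, and all 8 were present among the 19222 genes of the deposited 1 h table. HEK-293T is a wild-type line here by its labels, derived from human embryonic kidney and carrying the SV40 large T antigen, and it was grown with fetal bovine serum. In the 1 h experiment, 3 libraries came from untreated cells and 3 from cells treated with 1.8 µM emetine, all incubated for 1 h with 500 µM s4U (4-thiouridine), and 1 untreated and 1 emetine-treated library came from cells without s4U. Emetine is an alkaloid that blocks translation elongation. In TL-seq, s4U is built into new RNA and read as T-to-C conversions, so that RNA made before and during the hour can be counted apart. A second experiment of 9 libraries (2 h, 250 µM s4U, untreated or 1.8 or 240 µM emetine) entered only through the mean level of each gene that the authors give over all of them.

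ID proteins carry a helix-loop-helix domain without the basic region that contacts DNA, and they dimerize with E proteins such as TCF3, TCF4 and TCF12 and keep them off DNA. The genes are classical direct targets of bone morphogenetic protein (BMP) signaling, which acts through SMAD1, SMAD5 and SMAD9. SMAD6 and SMAD7 are inhibitory SMADs, induced by BMP and TGF-β, that bind activated receptors and bring ubiquitin ligases to them. SKI and SKIL (also called SnoN) are corepressors that bind SMAD complexes on DNA, and *SKIL* is itself a TGF-β target.

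Each library held between 22246279 and 40018063 reads assigned to genes. Emetine replicate 3 stood apart: edgeR's biological coefficient of variation was 13.3% with it and 6.43% without it. Over genes, its log2 offset from the emetine group mean had an SD of 0.263, against 0.138 and 0.158 in emetine replicates 1 and 2. This offset followed transcript length with a Spearman correlation of 0.760 (untreated libraries −0.226 to 0.172). Offsets within a group cancel out, so the −0.690 and −0.682 of emetine replicates 1 and 2 partly mirror replicate 3. The relation to length is given here because transcript length differs among the members: the annotated transcripts of *ID1*, *ID2* and *ID3* have only 983, 1299 and 950 bases, whereas those of *SKI* and *SKIL* have 6083 and 7155. Untreated replicate 1 had the smallest share of new reads, 7.84% against 9.19% to 11.7% in the other libraries with s4U. The labels do not say whether replicates were separate cultures, so the p-values below measure only the spread between these libraries, which may be technical.

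Sequence features were read first, since short-lived mRNAs often carry AU-rich elements, built from ATTTA repeats, in the 3′ UTR. In GENCODE 44 (GRCh38), the heptamer TATTTAT was found in the 3′ UTR of 6 members, against 34.3% of 16092 genes, and it was not found in those of *ID1* and *ID3*. *ID2* and *SKI* held 2 copies each, *SKIL* held 3, and *ID4*, *SMAD6* and *SMAD7* held 1. The share of genes with the heptamer takes no account of length. The 3′ UTRs of the members ran from 416 bases (*ID1*) to 3002 (*ID4*), 3448 (*SKI*) and 4418 (*SKIL*), against a median of 1228. Whether copies go with turnover was not tested. The density of the pentamer ATTTA was highest in *SKIL*, with 5.21 per kb (higher than in 91.8% of genes), and lay between 1.94 and 4.57 per kb in the other members. The median over genes was 1.63 per kb. Windows of 27 bases around the heptamer (capitals) are shown for *ID2*, *SMAD6* and *SMAD7*, 5′ to 3′ on the transcribed strand, because the inhibitory SMADs share more than the heptamer: 20 of the 27 bases are identical between their windows, the highest number among all 45 pairs of windows of the members (median 13).
ID2 3′ UTR window, chr2:8683876-8683902 (plus strand): tgatattcgtTATTTATgaaaaagact
ID2 3′ UTR window, chr2:8684115-8684141 (plus strand): gctgtgtataTATTTATatataaatat
SMAD6 3′ UTR window, chr15:66781727-66781753 (plus strand): acaatgtaatTATTTATgtatggtgca
SMAD7 3′ UTR window, chr18:48920039-48920065 (minus strand): taagcatcatTATTTATgtattgtgca

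Promoter sequence (250 bases before to 50 bases after the start, RefSeq, GRCh38.p14) was given for 7 members, *SKI* being the other, and 3 starts were listed for *SMAD7*. The motifs below were searched on both strands: the SMAD palindrome GTCTAGAC (in 0.202% of 35116 promoters), the GC-rich SMAD site GGCGCC (19.2%), the CRE TGACGTCA (1.85%), CCAAT (34.6%) and TATAAA (11.5%). *SMAD6* held 1 GTCTAGAC and 1 CCAAT. *SKIL* held 1 GGCGCC and 1 TGACGTCA. CCAAT stood 3 times in *ID2* and once each in *ID1* and *ID4*, and TATAAA stood in *ID1*, in *ID4* and at the second start of *SMAD7*. None of the 5 motifs was in the windows of *ID3* or of the first start of *SMAD7*. The promoters of *ID1*, *ID3* and *SMAD7* (first start), whose transcript levels rose, and that of *SMAD6* are printed 5′ to 3′ with the motifs in capitals (ATTGG and TTTATA are CCAAT and TATAAA on the other strand; in *ID1* the TATAAA copies of both strands overlap).
ID1 promoter, chr20:31605039-31605338 (plus strand): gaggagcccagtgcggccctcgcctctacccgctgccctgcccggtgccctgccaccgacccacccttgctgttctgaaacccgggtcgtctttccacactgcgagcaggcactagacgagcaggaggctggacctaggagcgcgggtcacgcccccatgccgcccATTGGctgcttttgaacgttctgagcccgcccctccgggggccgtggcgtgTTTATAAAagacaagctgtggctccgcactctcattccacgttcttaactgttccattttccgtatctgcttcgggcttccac
ID3 promoter, chr1:23559452-23559751 (minus strand): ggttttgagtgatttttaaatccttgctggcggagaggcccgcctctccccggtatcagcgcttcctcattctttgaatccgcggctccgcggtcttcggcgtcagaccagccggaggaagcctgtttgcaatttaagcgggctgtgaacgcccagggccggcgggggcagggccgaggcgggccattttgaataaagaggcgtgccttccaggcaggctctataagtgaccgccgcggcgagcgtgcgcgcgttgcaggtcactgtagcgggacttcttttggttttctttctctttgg
SMAD6 promoter, chr15:66701986-66702285 (plus strand): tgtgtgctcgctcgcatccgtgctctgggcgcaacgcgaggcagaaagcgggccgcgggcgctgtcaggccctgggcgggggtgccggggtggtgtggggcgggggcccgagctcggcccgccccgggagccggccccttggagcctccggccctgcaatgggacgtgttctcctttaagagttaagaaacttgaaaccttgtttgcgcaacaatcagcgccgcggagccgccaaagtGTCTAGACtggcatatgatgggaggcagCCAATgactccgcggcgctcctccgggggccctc
SMAD7 promoter, chr18:48950916-48951215 (minus strand): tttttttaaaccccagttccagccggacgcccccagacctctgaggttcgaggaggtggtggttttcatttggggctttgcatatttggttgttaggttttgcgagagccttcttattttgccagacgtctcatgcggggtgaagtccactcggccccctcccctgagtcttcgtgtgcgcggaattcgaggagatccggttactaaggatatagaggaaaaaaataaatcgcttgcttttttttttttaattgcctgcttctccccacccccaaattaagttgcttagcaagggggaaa

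In untreated cells, *ID3*, *ID2* and *ID1* were the most abundant members per transcript length. Levels are CPM (read counts scaled to library size, with TMM normalization over 8 libraries), here divided by transcript length to compare genes. *ID3* stood highest, at 201 ± 9.91 CPM per kb (SD, n = 3), followed by *ID2* (96.3 ± 8.997), *ID1* (34.3 ± 2.45), *SKI* (15.9 ± 0.474), *ID4* (15.7 ± 2.56), *SMAD7* (7.002 ± 0.630), *SMAD6* (4.67 ± 0.546) and *SKIL* (2.97 ± 0.402). Only *SKI* and *ID4* had overlapping libraries among neighbors in this order. *ID3* lay above 96.3% and *SKIL* above 33.4% of 13486 genes. After emetine, *ID4* (22.1 ± 1.03 CPM per kb) moved above *SKI* (16.6 ± 4.09), but libraries of this pair still overlapped, as did those of *SMAD6* (6.43 ± 1.402) and *SKIL* (4.29 ± 1.03).

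Transcript levels of *ID1*, *ID3* and *SMAD7* were 1.51-fold to 1.57-fold higher after 1 h of emetine, and the other ID genes lay higher by smaller amounts that missed the threshold. edgeR's quasi-likelihood test set the 3 emetine against the 3 untreated libraries, all with s4U, over 13776 genes with more than 100 counts in total, and a gene was called at an adjusted p-value under 0.05. Of the 8 members, 3 were called higher (background: 2.64% of genes tested) and 0 lower (background: 0.0436%). At an unadjusted p-value under 0.05, 7 members were higher, and 2056 genes were higher and 958 lower. All 8 estimates were above 0, with a median log2 change of 0.51 against 0.03 over all genes. In CPM, the lowest emetine library exceeded the highest untreated one for 6 members, which was so for 19.6% of genes. For a single gene, this separation gives p = 0.1 in a two-sided exact permutation test, the smallest that 3 libraries against 3 allow.

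*ID1* (chr20:31605283-31606515, plus strand, 2 exons) measured 31.0, 35.2 and 35.1 CPM in the untreated and 56.0, 56.9 and 46.1 CPM in the emetine libraries. The groups did not overlap, and the lowest emetine value was that of replicate 3. This was a 1.57-fold difference, or 0.65 on the log2 scale (standard error 0.11, edgeR adjusted p = 0.0227). *ID3* (chr1:23557926-23559501, minus strand, 3 exons) measured 179.8, 197 and 195 CPM in untreated cells and 306, 322 and 236 CPM after emetine. Again the groups were apart and emetine replicate 3 was the lowest of its group. *ID3* was thus higher by 0.60 in log2 (standard error 0.12, adjusted p = 0.0439). *ID2* (chr2:8678845-8684461, plus strand, 3 exons), with 119, 117 and 139 CPM in untreated and 169.6, 167 and 166 CPM in emetine libraries, had the most even emetine values of the family. Its log2 fold change of 0.42 (standard error 0.09) missed the threshold by little (adjusted p = 0.0518). *ID4* (chr6:19837370-19842197, plus strand, 3 exons) measured 57.7, 53.0 and 72.0 CPM in untreated cells and 87.6, 81.1 and 88.4 CPM after emetine, a log2 difference of 0.49 (standard error 0.12, adjusted p = 0.0710).

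Among the SMAD inhibitors, *SMAD7* alone passed the test. *SMAD7* (chr18:48919853-48950965, minus strand, 4 exons) measured 21.4, 25.6 and 23.1 CPM in the untreated and 35.9, 32.8 and 39.1 CPM in the emetine libraries. All emetine values lay above all untreated values, here with replicate 3 as the highest. The difference was 1.53-fold, or 0.62 on the log2 scale (standard error 0.11, edgeR adjusted p = 0.0272). *SMAD6* (chr15:66702236-66782849, plus strand, 4 exons) measured 19.9, 18.0 and 15.8 CPM without and 30.0, 19.3 and 24.5 CPM with emetine. The groups overlapped, and the log2 difference was 0.46 (standard error 0.17, adjusted p = 0.188). *SKIL* (chr3:170357342-170396835, plus strand, 7 exons) measured 21.7, 18.2 and 23.9 CPM in untreated and 28.9, 24.4 and 38.8 CPM in emetine libraries, a log2 difference of 0.53 (standard error 0.18, adjusted p = 0.162). The highest *SKIL* value was that of emetine replicate 3, and without that library the difference was 0.34 (adjusted p = 0.0581). *SKI* (chr1:2227388-2310213, plus strand, 7 exons) measured 98.8, 93.6 and 98.3 CPM without and 94.1, 80.4 and 129 CPM with emetine. Its emetine libraries lay on both sides of the untreated ones, and the log2 difference was 0.06, with a 95% interval from −0.29 to 0.41 (adjusted p = 0.836). Without emetine replicate 3, the difference for *SKI* was −0.15 (adjusted p = 0.176).

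**Figure D1:**
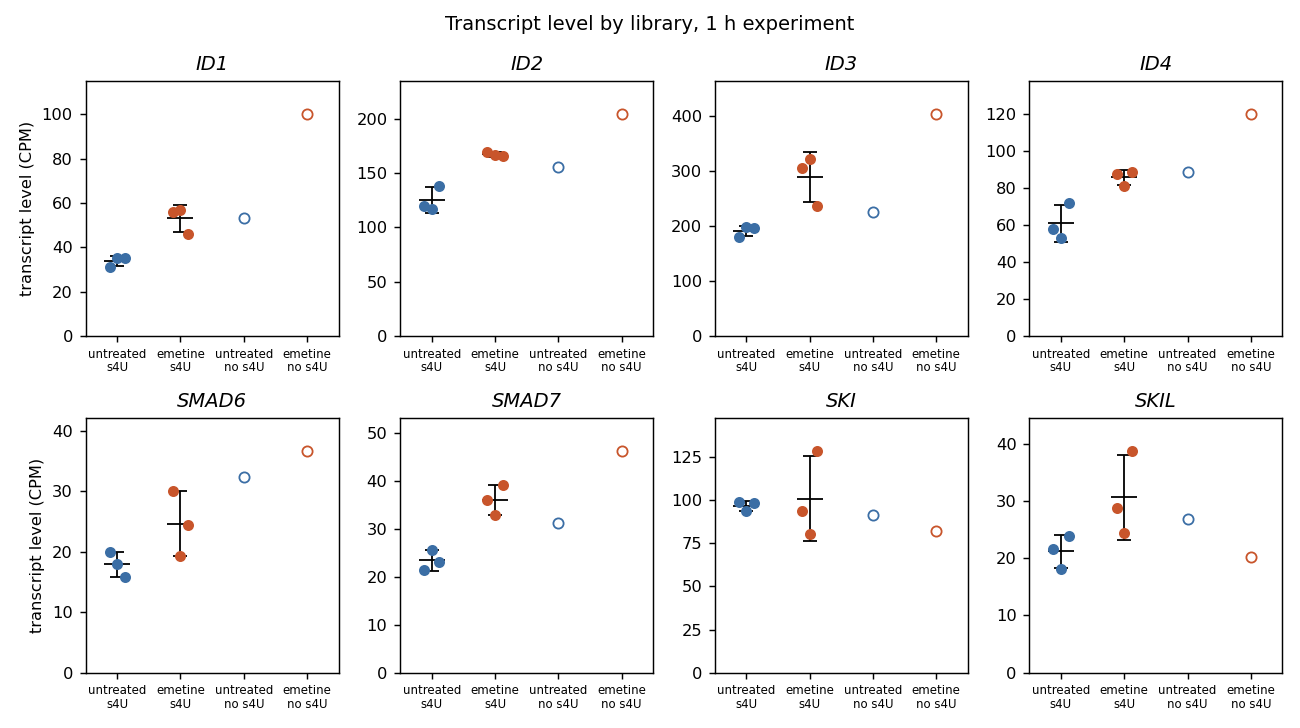
Transcript level (CPM, y axis from 0) of the 8 members in each library of the 1 h experiment (x axis: group). Filled points are libraries with s4U, black bars their mean and SD (n = 3), and open points the single libraries without s4U; the emetine libraries with s4U lie above the untreated ones for all members but *SMAD6* and *SKI*.

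The number of members called higher depended on which libraries were kept. Without emetine replicate 3, 5 members were called: *ID1* (log2 0.75, adjusted p = 1.76e-05), *ID3* (0.72, adjusted p = 4.04e-06), *SMAD7* (0.56, adjusted p = 0.00102), *ID2* (0.43, adjusted p = 0.000979) and *ID4* (0.48, adjusted p = 0.00492). Over all genes, 1367 were then higher and 525 lower. Without untreated replicate 1, untreated replicate 2, untreated replicate 3 or emetine replicate 1, 0 members were called, and 4, 5, 18 and 132 genes in all were higher. Without emetine replicate 2, *SMAD7* alone was called (adjusted p = 0.0378), and 239 genes were higher. The log2 change stayed between 0.59 and 0.75 for *ID1*, between 0.50 and 0.72 for *ID3* and between 0.56 and 0.69 for *SMAD7* in these fits. After smooth trends on length and GC were taken out of each library, the estimates of the short *ID1* and *ID3* transcripts were 0.88 (adjusted p = 0.00101) and 0.82 (adjusted p = 0.00028), *ID2* was called (0.53, adjusted p = 0.0166) and *ID4* was not (0.34, adjusted p = 0.0754). DESeq2's Wald test called the 4 ID genes and *SMAD7*, with adjusted p-values from 0.00012 to 0.0142.

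The members differed widely in how much of their RNA was made during the hour. Conversions per read show this without a model: in the untreated libraries with s4U, pooled, 10.9% of *SMAD7* reads and 15.97% of *ID1* reads had no T-to-C conversion, against 78.3% of *SKI* reads. In the libraries without s4U, 98.0% to 99.2% of the reads of these genes had none. Reads with 2 or more conversions were 74.6%, 81.9% and 79.6% of *SMAD7* reads in untreated replicates 1 to 3, which rest on 598, 894 and 490 reads. Without s4U they were 0 of 737 untreated and 0 of 1470 emetine reads of *SMAD7* (upper Wilson bounds at 95%, 0.519% and 0.261%, which cover counting error only). Replicate 2 of both groups had more T positions per read: for *SMAD7*, 45.2 in untreated and 42.4 in emetine replicate 2, against 33.5 to 37.2 in the other libraries with s4U. The mixture estimate used below takes the T positions of each read into account, whereas the raw share does not.

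**Figure D2:**
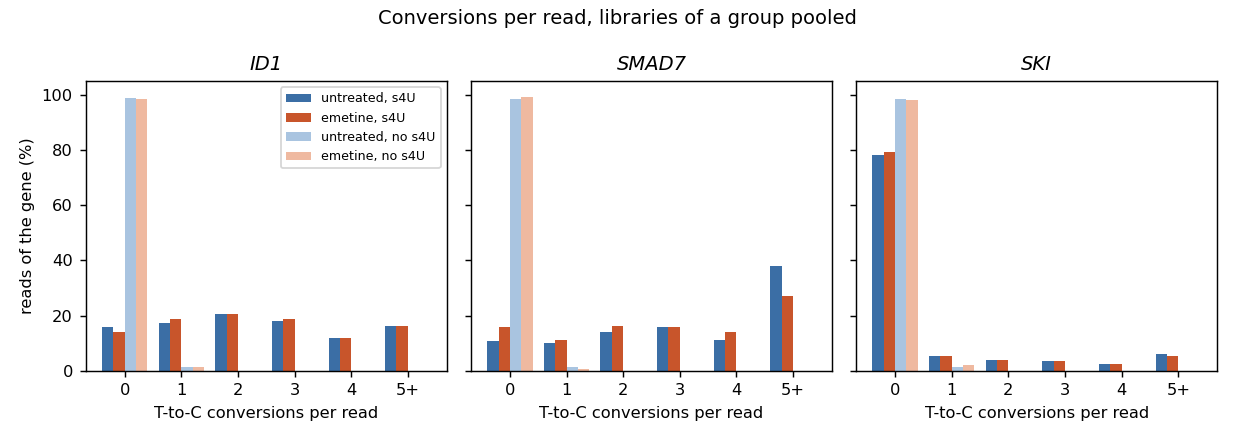
Share of reads (% of the gene's reads, y axis) with 0 to 4 or at least 5 T-to-C conversions (x axis) for *ID1*, *SMAD7* and *SKI*, with the libraries of a group pooled. Reads without s4U sit almost wholly at 0 conversions (98.0% to 99.2%), as do most *SKI* reads with s4U (78.3% untreated), whereas *ID1* and *SMAD7* reads spread over 1 and more.

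The fraction new is the share of a gene's reads that came from transcripts made during the s4U hour, estimated by maximum likelihood from the conversions. In untreated cells, *SMAD7* (92.9% ± 0.678, SD, n = 3) and *ID1* (92.8% ± 5.48) ranked 15th and 16th among 10763 genes. The other ID genes followed, with 65.8% ± 12.3 for *ID2*, 63.9% ± 10.0 for *ID3* and 56.2% ± 11.8 for *ID4*. *SMAD6* stood at 51.2% ± 4.88, *SKIL* at 25.1% ± 7.08 and *SKI* at 20.5% ± 4.60, against a median of 12.2% over all genes. At steady state, and with labeling from the start of the hour, these values correspond to half-lives of 15.04 to 16.1 min for *SMAD7* and 11.3 to 20.6 min for *ID1* across the untreated libraries. They were 30.2 to 57.0 min for *ID2*, 33.2 to 55.8 min for *ID3*, 40.0 to 74.5 min for *ID4* and 50.2 to 66.1 min for *SMAD6*. The ranges of *SMAD7* and *ID1* depend on the conversion rate assumed for new reads. In untreated replicates 2 and 3 that rate was 8.87% and 8.49%. The share of T positions converted over all reads of either gene lay above it there. *SKIL* and *SKI* turned over more slowly, at 117 to 224 min and 154 to 251 min. For 7 of the 8 members, untreated replicate 1 gave the lowest fraction new of its group, the exception being *SMAD7*.

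Fraction new did not change past the threshold in any member after emetine. Its logit was tested with limma in 10763 genes that had 100 reads or more in all 6 libraries: 0 of 8 members were higher (background: 0.214%) and 0 were lower (background: 4.83%), and at an unadjusted p-value under 0.05 the number was also 0. *ID1* gave 86.8%, 94.1% and 97.5% in untreated and 94.4%, 97.0% and 96.3% in emetine libraries, with a change in logit of 0.41 and a 95% interval from −0.29 to 1.12 (adjusted p = 0.642). The emetine values of *ID1* depend on the assumed conversion rate too, since its share of converted T positions lay above that rate in every emetine library. *ID2* gave 51.8%, 70.7% and 74.8% without and 68.4%, 70.4% and 73.7% with emetine (logit change 0.21, interval −0.31 to 0.73). *ID3* gave 52.5%, 67.7% and 71.5% without and 60.5%, 63.0% and 66.8% with emetine (−0.03, interval −0.54 to 0.47). In each of these genes the emetine values lay inside the range of the untreated ones. The same held for *ID4*, with 42.8%, 61.4% and 64.6% in untreated and 60.8%, 60.7% and 59.8% in emetine libraries (0.16, interval −0.33 to 0.66). For fraction new, limma used 39.4 (*ID1*) to 81.5 degrees of freedom in the members. The intervals and p-values thus follow mostly a trend over all genes, not each gene's own spread.

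Both inhibitory SMADs had negative estimates, with intervals that include 0. *SMAD7* gave 92.6%, 93.7% and 92.5% in untreated and 87.8%, 87.4% and 93.2% in emetine libraries, so that emetine replicates 1 and 2 were below all untreated values and replicate 3 was among them (logit change −0.40, interval −0.99 to 0.19, adjusted p = 0.572 from limma). *SMAD6* was the member whose groups did not overlap: 46.7%, 50.5% and 56.4% in untreated and 42.7%, 43.0% and 41.1% in emetine libraries, a separation in this direction that 16.8% of genes had. Its logit change was −0.36 (interval −0.82 to 0.10, adjusted p = 0.477). The raw share of *SMAD6* reads with 2 or more conversions was 29.9%, 34.8% and 36.8% in untreated and 23.7%, 29.8% and 24.9% in emetine libraries and the groups barely missed overlapping. Without untreated replicate 1, *SMAD6* passed the threshold (−0.45, adjusted p = 0.0342), and the number of genes with a lower fraction new went from 520 to 2522. *SKI* (15.2%, 22.6% and 23.7% without, 19.3%, 20.7% and 20.9% with emetine) and *SKIL* (16.9%, 28.2% and 30.0% without, 21.1%, 25.1% and 26.3% with emetine) had logit changes of 0.0028 (interval −0.42 to 0.42) and −0.02 (interval −0.45 to 0.40).

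**Figure D3:**
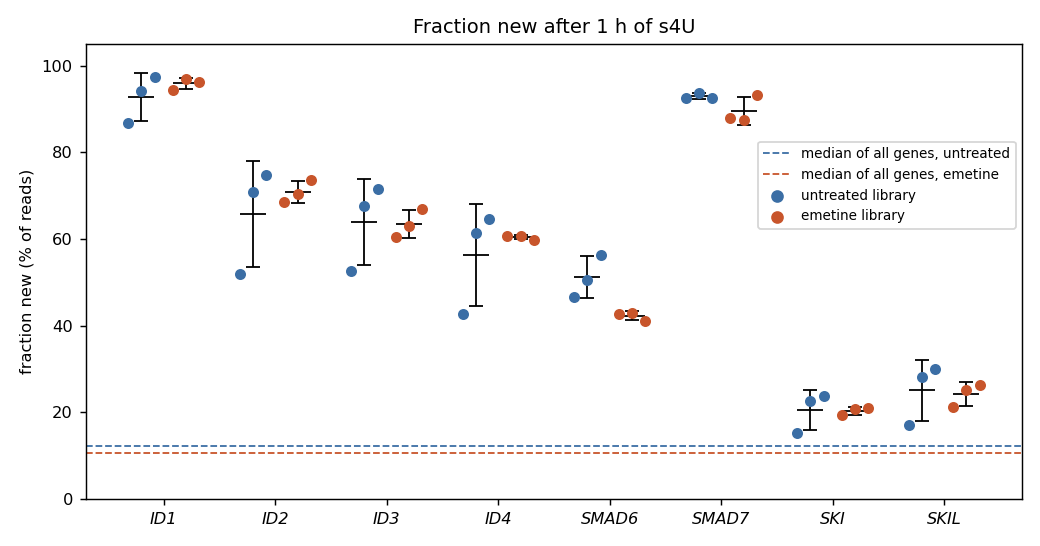
Fraction new (% of reads, y axis) of the 8 members (x axis) in the untreated (blue) and emetine (orange) libraries with s4U, with mean and SD (black, n = 3) and the median of all genes (dashed, 12.2% untreated and 10.7% emetine). *ID1* and *SMAD7* lie near the top, *SKI* and *SKIL* are the lowest members, and *SMAD6* is the member whose groups do not overlap.

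Level and fraction new were combined to split each level into labeled CPM (made during the hour) and unlabeled CPM (made before it), which were compared with limma as log2(CPM + 0.5). For the ID genes the labeled part lay higher after emetine in every library. *ID1* had 26.9, 33.1 and 34.2 labeled CPM in untreated and 52.9, 55.2 and 44.4 in emetine libraries, *ID2* had 61.8, 83.0 and 104 against 116, 117 and 122, and *ID3* had 94.5, 133 and 139 against 185, 203 and 158. *ID4* had 24.7, 32.5 and 46.6 labeled CPM against 53.2, 49.2 and 52.9. With *SMAD7* (19.8, 24.0 and 21.4 against 31.6, 28.7 and 36.4), this made 5 members without overlap, whereas 3.32% of all genes showed it. The log2 differences of these 5 genes lay between 0.54 (*ID2*) and 0.69 (*ID1*), with standard errors of 0.20 to 0.22. None of the 8 members passed the adjusted threshold (background: 0.26% higher), 5 passed at an unadjusted p-value under 0.05, and the smallest adjusted p-value was 0.0933, for *ID1*. For labeled reads, limma used 43052 degrees of freedom, so these standard errors follow a trend over all genes, not each gene's own spread. When fraction new was first centered on the library medians, the same 5 genes passed, with adjusted p-values from 0.00589 to 0.0203. Without untreated replicate 1, *ID1* (adjusted p = 0.0185) and *SMAD7* (adjusted p = 0.0434) passed, and without untreated replicate 3, *ID4* did (adjusted p = 0.0186). Labeled *SMAD6* (9.30, 9.08 and 8.88 without, 12.8, 8.29 and 10.0 CPM with emetine) differed by 0.16 on the log2 scale (interval −0.32 to 0.64).

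In the unlabeled part, *SMAD7* had the largest difference of the members. It had 1.59, 1.61 and 1.74 unlabeled CPM in untreated and 4.38, 4.14 and 2.66 in emetine libraries, all higher and with replicate 3 the least so. The unlabeled difference was 0.95 on the log2(CPM + 0.5) scale (standard error 0.20, adjusted p = 0.0243 from limma), which understates the change of so low a value. These values depend on the conversion rate assumed for new reads, 1 per library. Over all *SMAD7* reads, 9.74%, 9.49% and 9.51% of T positions were converted in untreated replicates 2 and 3 and emetine replicate 3. That is above the assumed 8.87%, 8.49% and 9.05%, while the other libraries with s4U lay below their rate, so the small unlabeled part is uncertain. *SMAD7* was the single member called (background: 7.3% higher). It was called in 4 of the 11 other fits, and its adjusted p-value was 0.0823 without emetine replicate 1, 0.0596 without emetine replicate 2, 0.00168 without emetine replicate 3 and 0.0598, 0.0976 and 0.098 without untreated replicates 1, 2 and 3. Unlabeled *SMAD6* (10.6, 8.89 and 6.88 CPM without, 17.2, 11.0 and 14.4 with emetine) differed by 0.66 (standard error 0.20, adjusted p = 0.0933), and unlabeled *SKIL* (18.0, 13.0 and 16.7 without, 22.8, 18.2 and 28.6 with emetine) by 0.52 (standard error 0.19, adjusted p = 0.136). Groups of these 3 genes did not overlap, as was the case for 24% of all genes. Without emetine replicate 3, unlabeled *ID3* (0.84, adjusted p = 0.0213) and *SMAD6* (0.64, adjusted p = 0.0481) were called too, and without emetine replicate 2, *SMAD6* alone was (0.82, adjusted p = 0.0388).

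None of the ID genes was called in unlabeled reads. Unlabeled *ID3* (85.4, 63.6 and 55.7 CPM in untreated, 121, 119 and 78.4 in emetine libraries) was higher by 0.63 (standard error 0.20, adjusted p = 0.101), much as its labeled part was (0.58). Unlabeled *ID1* had 4.10, 2.06 and 0.887 CPM without and 3.15, 1.71 and 1.71 with emetine, and its difference was 0.04 with a wide interval, −0.87 to 0.95. Over all *ID1* reads, 9.59%, 9.80% and 9.57% of T positions were converted in emetine replicates 1 to 3. The conversion rates assumed for new reads were lower there, at 9.25%, 8.995% and 9.05%. Untreated replicates 2 and 3 also lay above their rate, and untreated replicate 1 lay below it. The small unlabeled part of *ID1* is thus uncertain, as that of *SMAD7* is. *ID2* (57.5, 34.3 and 34.9 against 53.5, 49.3 and 43.7) and *ID4* (33.0, 20.5 and 25.5 against 34.4, 31.9 and 35.6) had differences of 0.24 and 0.38. Whether the ID genes differ from each other in unlabeled reads was not tested. *SKI* differed little in either part (labeled 0.04, unlabeled 0.04).

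**Figure D4:**
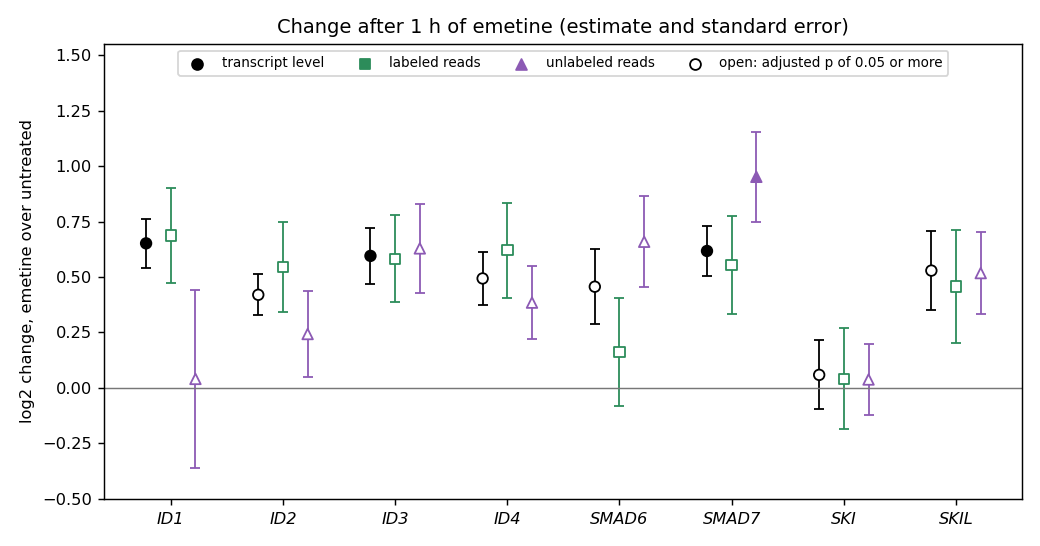
Log2 change (y axis, emetine over untreated, 3 libraries each) of transcript level, labeled reads and unlabeled reads for the 8 members (x axis); points are estimates, bars standard errors, and filled points have an adjusted p-value under 0.05. The filled points are the levels of *ID1*, *ID3* and *SMAD7* and the unlabeled reads of *SMAD7* (0.95), and *SKI* stays near 0 in all 3 measures.

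Libraries without s4U gave a second view of the emetine response, with 1 library in each treatment and so no replicate check. *ID1* measured 53.3 CPM in the untreated and 100.0 CPM in the emetine library (1257 and 3178 reads), a 1.87-fold difference and a log2 ratio above that of 98.9% of genes. *ID3* measured 225 and 402 CPM (1.79-fold), *SMAD7* 31.3 and 46.3 CPM (1.48-fold), *ID4* 88.5 and 119.9 CPM (1.36-fold) and *ID2* 155 and 204 CPM (1.31-fold). *SMAD6* measured 32.4 and 36.7 CPM (1.13-fold). *SKIL* ran the other way, with 26.9 CPM in the untreated and 20.3 CPM in the emetine library (0.755-fold), as did *SKI* with 91.7 and 82.2 CPM (0.896-fold). The 4 ID genes, *SMAD6* and *SMAD7* thus had higher values with emetine in this pair of single libraries as well as in the means with s4U. For *SKIL* and *SKI* the 2 views disagreed: they were lower with emetine in this pair, and their means with s4U were higher. Those means were 21.3 and 30.7 CPM for *SKIL* and 96.9 and 101 CPM for *SKI*, untreated and emetine. The higher *SKI* mean rested on emetine replicate 3. Without that library the log2 difference of *SKI* with s4U was −0.15, near the −0.16 of this pair. For *SKIL* it was still above 0 without that library (0.34).

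The same 2 libraries allow the level with and without s4U to be compared. In both treatments, the library without s4U lay above all 3 libraries with s4U for 6 members, the 4 ID genes, *SMAD6* and *SMAD7*, which was so for 10.1% of genes. The s4U term of an additive edgeR fit over the 8 libraries was −0.79 for *ID1* (standard error 0.11, adjusted p = 0.134), −0.72 for *SMAD6* (standard error 0.16, adjusted p = 0.604) and −0.51 for *ID4* (standard error 0.11, adjusted p = 0.580). It lay between −0.39 and −0.30 for *SMAD7*, *ID3* and *ID2* and was above 0 for *SKI* (0.19) and *SKIL* (0.10). No gene passed over all 14102 tested (background: 0%), while at an unadjusted p-value under 0.05, 178 genes were higher and 495 lower with s4U, among them these 6 members as lower. DESeq2's Wald test called 7 genes higher and 18 lower, the latter with *ID1*, *ID4* and *SMAD6*, and without emetine replicate 3 edgeR called 4 members, those 3 and *ID3* (33 genes lower and 8 higher in all). A difference between labeled and unlabeled cultures and a difference between single libraries cannot be told apart here.

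Other genes of the BMP and TGF-β pathways were taken from lists of ligands, extracellular antagonists, receptors, signaling SMADs, ubiquitin ligases and corepressors, E proteins and further target genes. Of 106 such genes, 78 had enough reads for the level test and 9 were called higher (background: 2.64% of genes tested). Among the 18 tested targets 8 were higher and 0 lower, with a median log2 change of 0.41: *KLF10* (1.43, adjusted p = 0.0104), *HES1* (1.33, adjusted p = 0.00368), *SNAI2* (1.28, adjusted p = 0.00368), *MYC* (0.90, adjusted p = 0.00656), *HEY1* (0.88, adjusted p = 0.00451), *GATA3* (0.51, adjusted p = 0.0257), *MSX2* (0.46, adjusted p = 0.0497) and *DLX2* (0.44, adjusted p = 0.0419). All 8 encode transcription factors, as do most genes of this list, so this trait follows from how the list was made. Leaving out 1 library took the adjusted p-value of each of them above 0.05 in at least 1 case, with highest values from 0.0672 (*SNAI2*) to 0.240 (*MSX2*). The other gene was *BMP2*, a BMP ligand, which rose from 31.4 ± 2.08 to 48.1 ± 6.02 CPM (log2 0.62, adjusted p = 0.0300) and was the only one of 16 tested ligands called. It too lost its call without at least 1 library (highest adjusted p = 0.179).

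The other lists held no call in level, against a background of 2.64%, at which few or no calls would stand in lists of these sizes. For receptors, 0 of 12 were called (median log2 change 0.09), for the signaling SMADs 0 of 6 (median 0.34), for ubiquitin ligases and corepressors 0 of 15 (median 0.09), for antagonists 0 of 8 (median 0.17) and for E proteins 0 of 3 (median 0.27). *SMAD1* and *SMAD5*, which act downstream of BMP receptors, measured 15.1 ± 0.448 and 50.04 ± 4.19 CPM in untreated and 21.2 ± 5.32 and 69.0 ± 19.1 CPM in emetine libraries (adjusted p = 0.172 and 0.195). *TCF3*, at 38.2 CPM per kb the highest of the 3 E protein transcripts, measured 181 ± 1.33 and 170 ± 6.01 CPM, and its fraction new was 8.58% in untreated and 7.76% in emetine libraries, below that of every ID gene.

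Several pathway genes had a lower fraction new after emetine. Of 62 tested, 8 were lower at an adjusted p-value under 0.05 (background: 4.83% of genes tested, with a median logit change of −0.16 over all genes) and 0 higher. Whether these genes differ from the members in this respect was not tested. *BMP4*, another ligand, fell from 74.0% ± 6.83 to 41.2% ± 5.04 (logit change −1.42, standard error 0.25, adjusted p = 5.99e-05 from limma) with no called change in level (log2 0.05). *HEY2* (62.1% to 36.1%), *RNF111*, a ubiquitin ligase that acts on SKI, SKIL and SMAD7 proteins (53.9% to 30.4%), *BAMBI*, a pseudoreceptor that dampens TGF-β signaling (91.8% to 80.2%), *SNAI2* (88.6% to 73.4%), *DLX2* (75.7% to 53.9%), *GATA3* (56.3% to 37.7%) and *TGFB3* (31.4% to 18.9%) were the others. *BMP4* kept its call without each library in turn (highest adjusted p = 0.0278), and the other 7 each lost it without at least 1 library.

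**Figure D5:**
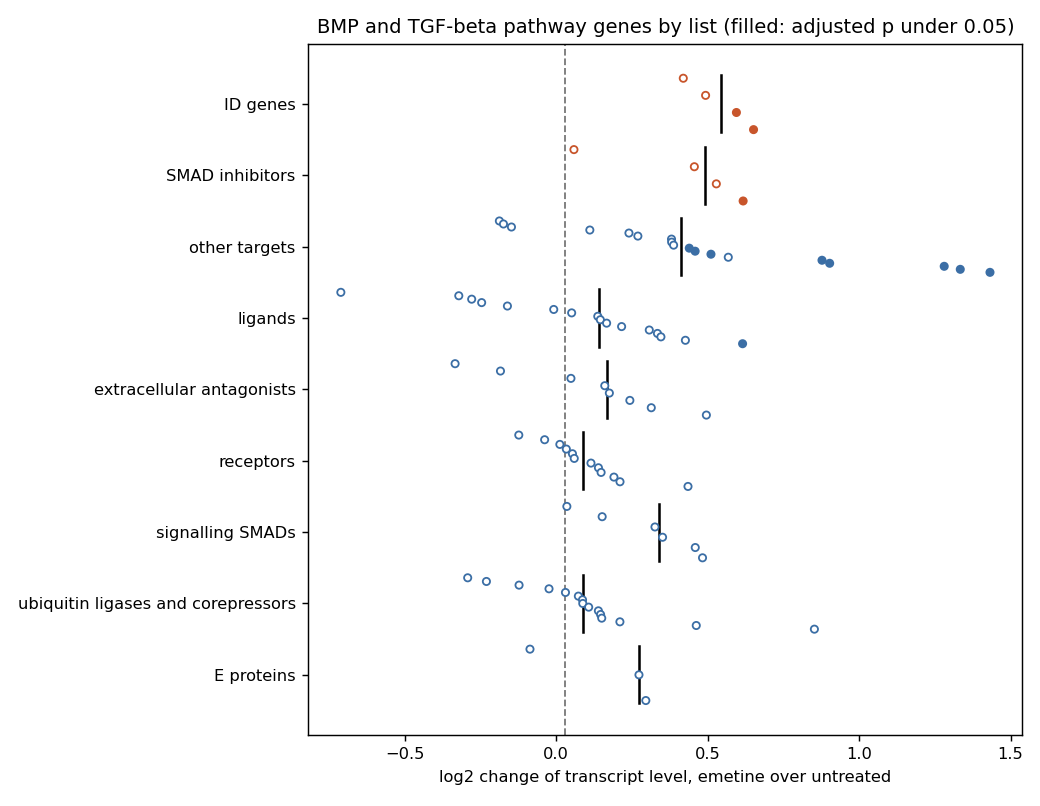
Log2 change of transcript level (x axis, emetine over untreated) for each tested gene of 9 lists (y axis), with the list median as a black bar and the median of all genes as a dashed line (0.03). Filled points have an adjusted p-value under 0.05: 3 of the 8 members (orange), 8 of the 18 other targets and 1 ligand.

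Across the 8 libraries, *ID1* moved most like *CYP27B1*, *GPBP1* and *RUFY1* (Pearson r of log2(CPM + 0.5) 0.990, 0.985 and 0.980, n = 8 libraries), and *SMAD7* most like *ZNF230*, *TFAP2A* and *CLK4* (0.989, 0.986 and 0.981). These were the closest 3 genes in each case, and the 8 points share treatment, s4U and depth. *GPBP1* spanned only 94.4 to 109 CPM, so that a like pattern does not mean a like size. Among the members themselves, r lay between 0.822 and 0.976 within the ID genes and between 0.864 and 0.924 for *SMAD7* with each ID gene. *SKI* had r between −0.501 and −0.171 with the ID genes and 0.685 with *SKIL*. Emetine replicate 3, whose offset followed transcript length, held the highest *SKI* value and the lowest emetine values of *ID1* and *ID3*. Its part in these correlations was not tested.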

How the data were processed

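TL-seq libraries of HEK-293T cells (8 at 1 h, 9 at 2 h) were used. Per the labels and the study's methods, the authors trimmed reads with cutadapt, aligned them to hg38 with HISAT (hisat-3n) and SAMtools, and tallied with bam2bakR, as deposited, raw read counts by gene, T positions and T-to-C conversions for each 1 h library. For the 2 h libraries, the tables used here hold a signal per gene that the authors made over all 9, the mean of counts normalized to spike-in RNA, beside fold changes and p-values of their own comparisons, which were not used. The 9 spike-in size factors at 2 h were not used, because their names could not be matched to replicates. The 1 h and 2 h libraries were prepared with different kits (mRNA and total RNA).

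Library names in the conversion table carry no time and were taken as 1 h, the time at which controls without s4U exist. Reads assigned to no gene, 17.7% to 18.9% of each library, were left out. Counts were summed per gene. Levels were tested with edgeR 4.0.16 (R 4.3.3, quasi-likelihood, TMM, total count over 100), with DESeq2 1.42.0 as an alternative. Fraction new was the maximum-likelihood weight of a binomial mixture, bounded at 0.001 and 0.999, with the conversion rate without s4U (0.0504% and 0.0521%) as background and 8.49% to 9.53% in new reads. Its logit, and log2(CPM + 0.5) of labeled and unlabeled reads, were tested with limma 3.58.1 (trend, robust). Adjustment was by Benjamini-Hochberg over all genes tested, and the code was tested on simulated data. mgcv 1.9.3 fitted length and GC trends. Groups followed the labels. Reads carry no molecular identifiers, so the Wilson bounds cover counting error only. The intervals of level, fraction new, labeled and unlabeled reads come from the standard errors of edgeR or limma. These draw on the spread between libraries of all genes as well as that of the gene itself. For fraction new (39.4 to 81.5 degrees of freedom in the members) and labeled reads (43052) they follow mostly the trend over all genes. The members, gene lists and tests were chosen with earlier results of these data known. Genes named are the members, every list gene past the threshold in level or fraction new (at most 20), the 3 genes most like *ID1* and *SMAD7*, and, chosen after their values were seen, *SMAD1*, *SMAD5* and *TCF3*. Alternatives were other normalizations, filters, pseudocounts, estimators, a replicate block and leaving out each library.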

Additional observations from a re-analysis of the deposited data

How the results depend on the processing

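Of the 8 members, 3 were higher in level, and this number was 0 with spike-in scaling, 5 with DESeq2, 5 without a count filter, 5 in a fit of 8 libraries with s4U as covariate and 0 to 5 without single libraries. With RLE in place of TMM normalization it was 2, as *ID3* missed the threshold (edgeR adjusted p = 0.0576). Over all genes, 363 were higher and 6 lower, against 60 and 0 with spike-in scaling, 820 and 156 with DESeq2, 726 and 625 with length and GC trends removed, 646 and 30 with 8 libraries, and 4 to 1367 and 0 to 525 without single libraries. Spike-in scaling moved the median of all genes to 0.71. Relative to it, *ID1* stood at 0.61, *ID2* at 0.41, *ID3* at 0.54, *ID4* at 0.51, *SMAD6* at 0.50, *SMAD7* at 0.59, *SKI* at 0.07 and *SKIL* at 0.57. The same replicate numbers did not deviate together in level (r of 0.071, −0.012 and −0.175 across genes). That does not settle whether they pair the samples, since same-numbered libraries shared other traits. In both groups, replicate 2 had the most reads assigned to genes and replicate 3 the fewest. The share of new reads rose from replicate 1 to 3 in both (7.84%, 10.0% and 11.7% untreated, 9.19%, 9.35% and 9.96% emetine). With the replicate block, 0 members were higher in level and 0 in unlabeled reads, and 75 genes were higher and 3 lower in level (525 and 352 with length and GC trends removed as well); 350 genes were higher in unlabeled reads against 786 without it.

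With fraction new centered on library medians, 5 members were higher in labeled and 0 in unlabeled reads, and 176 genes were higher and 262 lower in labeled reads, against 28 and 68. Without single libraries, 0 to 1 members were lower in fraction new, 0 to 2 higher in labeled reads and 0 to 3 higher in unlabeled reads, while 98 to 2522 genes were lower in fraction new, 2 to 1737 lower in labeled reads and 282 to 1447 higher in unlabeled reads. A minimum of 50 or 500 reads left 298 or 227 genes lower in fraction new, and *SMAD6* and *SMAD7* had too few reads for a value at 500. With s4U, 3 members were lower by DESeq2, 1 without a count filter and 0 to 4 without single libraries.

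Some differences changed sign. The level of *SKI* was −0.077 with length and GC trends removed, −0.087 with the replicate block added, and −0.15 to 0.20 without single libraries. In fraction new, centering gave 0.092 for *ID3* and 0.10 for *SKIL*, and the share of reads with 2 or more conversions gave −0.058 for *SKI*. Without single libraries, the logit changes spanned −0.031 to 0.86 (*ID1*), −0.10 to 0.41 (*ID2*), −0.28 to 0.13 (*ID3*), −0.11 to 0.34 (*ID4*), −0.17 to 0.10 (*SKI*) and −0.26 to 0.11 (*SKIL*), the labeled change of *SKI* −0.16 to 0.17, the unlabeled changes −0.40 to 0.47 (*ID1*) and −0.14 to 0.19 (*SKI*), and the s4U term of *SKIL* −0.34 to 0.60. Centering also gave unlabeled changes of −0.079 (*ID1*) and −0.0034 (*SKI*). The cause was not tested for any of these. Among all alternatives for single members in level, 86 kept direction and side of the threshold, 10 passed it newly, 21 no longer passed and 3 changed sign. Depth limits the low genes most: unlabeled *ID1* and *SMAD7* rest on few reads in each library.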

Other observations

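At 2 h, the order of the members by level per transcript length was another one. The authors' mean of normalized counts over all 9 libraries, divided by transcript length in kb, was 2369 for *ID2*, 1273 for *ID4*, 980.2 for *ID3*, 613 for *SKIL*, 564 for *ID1*, 458 for *SMAD7*, 344 for *SKI* and 183 for *SMAD6*. *SKIL* was the lowest member at 1 h and stood in place 4 here, and *ID3* was the highest at 1 h and stood in place 3. Among 9982 genes, without division by length, *SKIL* lay above 92.2% and *ID1* above 35.8%. These means pool untreated and treated cells, have no SD or n here, and come from another kit and labeling time, whose parts in the order cannot be told apart.

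Reads that span a splice junction were most frequent in *ID3*, at 28.9% to 42.8% of its reads across the 8 libraries, followed by *SMAD6* (18.9% to 30.1%), *ID2* (18.8% to 26.4%) and *ID1* (12.2% to 23.0%). In *SKI* they were 11.7% in emetine replicate 3 and 1.82% to 4.95% in the other 7 libraries. That is the library with the highest *SKI* level (129 CPM), and no test was run on this share.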
